A study of Mus musculus with 9 samples.

Results

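Meiotic prophase synapsis and recombination genes were measured in single mouse oocytes arrested at metaphase II. The set was a fixed list of 10 genes, Sycp1, Syce1, Syce2, Sycp2, Sycp3, Spo11, Dmc1, Msh4, Msh5 and Mlh3, and each of the 10 had 1 array row named for it alone, among 19938 genes with such a row. The oocytes came from superovulated ICR females, an outbred strain, 2 months old, primed with PMSG (10 IU) and given hCG (10 IU) after 46 hours. In all, 3 preparations of RNA were compared, with 3 oocytes each: crude lysate in NuGEN direct lysis buffer, RNA purified with the Arcturus PicoPure kit, and RNA purified with the Qiagen RNeasy Mini kit. Every sample was amplified with Ribo-SPIA (NuGEN Ovation One-Direct) and hybridized to an Affymetrix Mouse Gene 1.0 ST array. The protocol took 1 to 3 cells from each of 3 mice per condition and does not tie an oocyte to a mouse. Oocytes of the same female may therefore be counted as separate samples, and p-values reflect the variation among the cells profiled.

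In prophase of the first meiotic division, SPO11 cuts the DNA, and the recombinase DMC1 carries the broken ends into the homologous chromosome. The MSH4 and MSH5 proteins stabilize the joined molecules, and MLH3 acts where crossovers form. Meanwhile the homologues are aligned by the synaptonemal complex, in which SYCP2 and SYCP3 form the lateral elements, SYCP1 spans the gap as the transverse filament, and SYCE1 and SYCE2 belong to the central element. In female mice these steps take place in the fetal ovary, and the complex is taken apart long before the oocyte matures. A metaphase II oocyte makes little new RNA, so the arrays read messages stored during growth.

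Values are the authors' log2 expression values. A gene was counted as above background on an array when it exceeded the 95th percentile of that array's 1246 olfactory, vomeronasal and taste receptor genes, a working limit that ran from 7.19 to 7.48 over the arrays. It was 7.23 to 7.28 in crude lysates, 7.19 to 7.26 with PicoPure and 7.27 to 7.48 with RNeasy. Levels of different genes come from different probes and are not compared as amounts of message. Of 14 oocyte markers, 13 were above background on all 9 arrays. Among them Bmp15, an oocyte growth factor, lay between 12.82 and 12.94, the zona gene Zp3 between 11.42 and 11.77, and Mos, the kinase of metaphase II arrest, between 9.55 and 10.61. Of 21 cumulus and granulosa markers, 12 were above background on no array, including Amh, Fshr, Cyp11a1 and Star, 5 were on some, and 4 (Foxl2, Nr5a1, Nr5a2 and Fst) were on all. Nr5a2, a nuclear receptor gene, lay between 9.30 and 11.32. RNeasy replicate 3 stood apart, as the 1 array with Inhba (8.48), Tnfaip6 (8.39) and Ptgs2 (7.56) above background. The median of these 21 genes on an array was 6.89 to 6.98 in crude lysates, 6.91 to 6.94 with PicoPure and 6.86 to 7.26 with RNeasy. Of 7 blood markers, 5 were above background on no array, 1 on some and 1 (Cd3e) on all. Of 6 oviduct markers, 2 were on none, 2 on some and 2 on all. The last were Krt8, between 8.28 and 9.13, and Cdh1, between 11.32 and 11.78. The share on no array was 71.4% for blood and 33.3% for oviduct markers, against 35.1% of all genes.

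Messages of 4 of the 10 genes, Syce2, Sycp2, Sycp3 and Msh4, were above background in all 9 oocytes. Over all genes, 43.1% met that condition. Sycp1 was above background in 4 oocytes and Syce1 in 2. Spo11, Dmc1, Msh5 and Mlh3 were above background in none, as were 35.1% of all genes. Between crude lysate and purified RNA 0 of the 10 passed the test, against 1.01% of all genes, and no other pair of preparations gave a call among them.

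**Figure D1:**
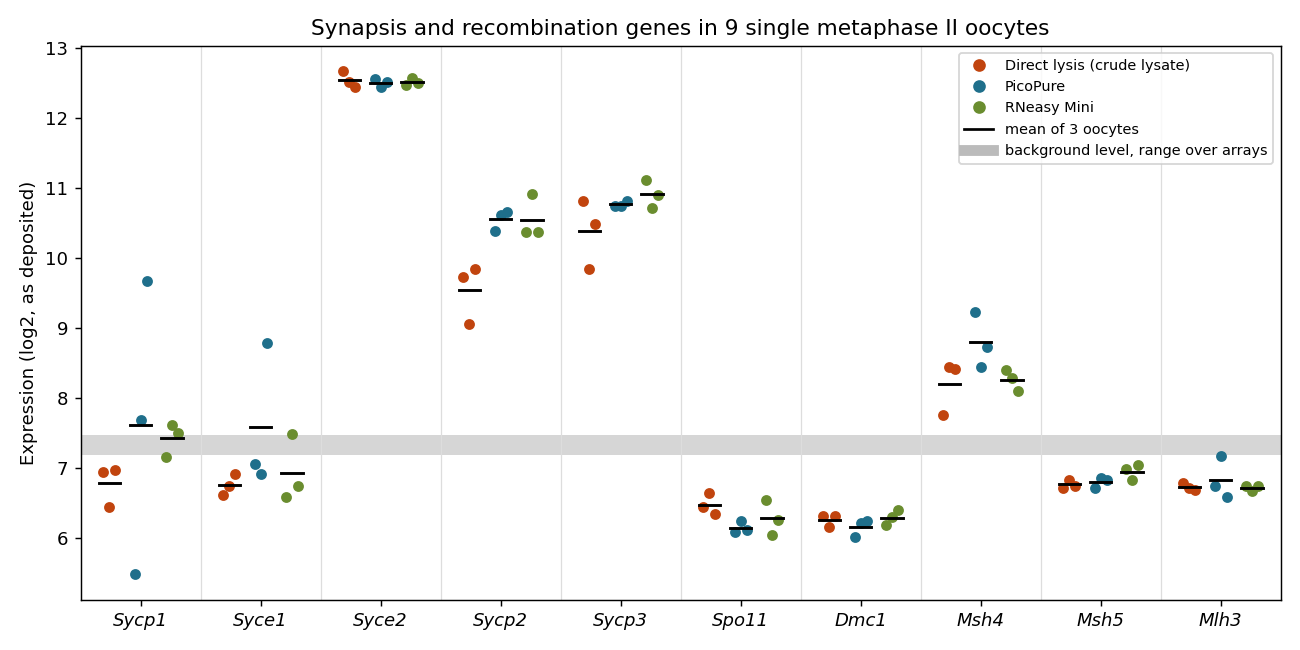
Log2 expression (vertical axis) of the 10 genes in 9 single oocytes, with 3 points per preparation, a black bar at their mean, and a grey band for the background level (7.19 to 7.48 over the arrays). Syce2, Sycp2, Sycp3 and Msh4 lie above the band in every oocyte, and the 3 crude lysates of Sycp2 lie below its 6 purified samples.

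Promoters are shown for the 4 genes whose message was measured in every oocyte and, for contrast, for Dmc1 and Msh5, whose message was above background in none. Each runs from 250 bases before to 50 bases after a RefSeq start site of GRCm38.p6. Capitals mark TCCCGC, the core of the site of E2F6, a repressor of meiotic genes in mouse somatic cells, and CACGTG, the E-box bound by MAX with its partner MGA, both searched on both strands with no overlap between them. The Syce2 window is chr8:84871861-84872160 on the plus strand, Sycp2 is chr2:178407609-178407908 on the minus strand, and Sycp3 is chr10:88459337-88459636 on the plus strand. The Msh4 window is chr3:153904842-153905141 on the minus strand, Dmc1 is chr15:79605060-79605359 on the minus strand, and Msh5 is chr17:35046573-35046872 on the minus strand.
Syce2: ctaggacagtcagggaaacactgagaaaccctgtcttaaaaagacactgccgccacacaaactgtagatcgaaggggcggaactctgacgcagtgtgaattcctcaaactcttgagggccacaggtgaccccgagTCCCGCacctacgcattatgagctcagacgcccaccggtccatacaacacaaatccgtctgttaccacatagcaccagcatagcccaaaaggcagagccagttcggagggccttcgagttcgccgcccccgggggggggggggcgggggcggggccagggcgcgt
Sycp2: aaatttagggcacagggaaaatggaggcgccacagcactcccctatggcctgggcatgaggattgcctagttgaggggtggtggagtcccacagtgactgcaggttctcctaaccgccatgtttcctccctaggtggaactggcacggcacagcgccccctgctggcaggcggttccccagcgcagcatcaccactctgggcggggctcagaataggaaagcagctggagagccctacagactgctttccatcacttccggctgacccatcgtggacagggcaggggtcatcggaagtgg
Sycp3: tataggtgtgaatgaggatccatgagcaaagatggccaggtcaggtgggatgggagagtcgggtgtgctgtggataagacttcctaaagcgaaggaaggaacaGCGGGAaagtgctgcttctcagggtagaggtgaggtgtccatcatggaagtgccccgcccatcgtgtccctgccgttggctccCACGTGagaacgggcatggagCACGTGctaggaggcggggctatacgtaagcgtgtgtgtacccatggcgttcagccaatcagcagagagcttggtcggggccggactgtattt
Msh4: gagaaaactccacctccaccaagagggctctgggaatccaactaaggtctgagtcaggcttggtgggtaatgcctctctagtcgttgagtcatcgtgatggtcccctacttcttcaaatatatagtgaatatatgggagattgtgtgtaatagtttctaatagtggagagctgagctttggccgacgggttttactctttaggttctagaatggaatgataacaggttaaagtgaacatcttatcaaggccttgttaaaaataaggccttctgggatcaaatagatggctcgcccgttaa
Dmc1: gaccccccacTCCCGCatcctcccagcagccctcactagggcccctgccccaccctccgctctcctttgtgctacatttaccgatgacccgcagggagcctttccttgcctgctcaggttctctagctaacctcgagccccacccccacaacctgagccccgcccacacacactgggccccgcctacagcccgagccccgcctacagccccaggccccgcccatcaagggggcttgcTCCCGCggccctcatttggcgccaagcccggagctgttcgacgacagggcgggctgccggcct
Msh5: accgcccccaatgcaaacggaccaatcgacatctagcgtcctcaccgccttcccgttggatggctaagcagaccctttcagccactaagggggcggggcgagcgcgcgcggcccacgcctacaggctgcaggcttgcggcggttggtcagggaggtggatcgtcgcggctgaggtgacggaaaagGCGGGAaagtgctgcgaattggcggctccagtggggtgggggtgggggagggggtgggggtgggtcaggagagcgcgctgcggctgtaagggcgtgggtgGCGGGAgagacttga
Of the 9 members with a sequence in the table, 5 held TCCCGC and 2 held CACGTG, against 20.0% and 7.2% of 27025 promoters. Both motifs contain the base pair step CG. It occurred 6 times in the Msh4 window and 10 to 27 times in the others, against a median of 7 over promoters. The shares were not matched for this, and enrichment was not tested. TCCCGC occurred 1 time each in Syce2 and Sycp3 and 2 times each in Dmc1 and Msh5, and was in neither Sycp2 nor Msh4. Letters of this motif were thus present in windows of genes with and without measurable message. Sycp3 held the E-box 2 times, 64 and 43 bases before the start. The longest run shared by any of the 36 pairs of member promoters was GCGGGAaagtgctgc, 15 bases that begin 147 bases before the start of Sycp3 and 65 bases before that of Msh5. No other promoter among the 27025 held this run, which was looked for after the sequences had been seen. Sycp3 was measured in every oocyte and Msh5 in none.

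Among central element genes, Syce2 gave the steadiest values of the measured members. It had 12.67, 12.52 and 12.45 in crude lysates, 12.56, 12.44 and 12.51 with PicoPure, and 12.47, 12.57 and 12.50 with RNeasy. The 3 preparations overlapped fully, and the SD within groups was 0.078, against a median of 0.193 over the 8589 genes above background on all arrays. Of those genes 10.4% had a smaller SD, and they were not matched to Syce2 for level. The difference between crude lysate and purified RNA was 0.04 ± 0.07 SE (95% interval -0.11 to 0.19, limma, adjusted p = 0.824). Between PicoPure and RNeasy it was -0.01 ± 0.08 SE (95% interval -0.19 to 0.17, limma, adjusted p = 0.984). The far bound of either interval corresponds to a 1.14-fold difference.

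Syce1, its partner in the central element, had 6.62, 6.74 and 6.91 in crude lysates, 7.06, 6.92 and 8.78 with PicoPure, and 6.58, 7.48 and 6.75 with RNeasy. Only PicoPure replicate 3 and RNeasy replicate 2 were above background. With crude lysate set at its background level, the PicoPure mean was 1.25-fold above it. That mean includes the 7.06 and 6.92 below background, so the fold is not a lower bound. It rests on PicoPure replicate 3, and the difference did not pass (limma, adjusted p = 0.525).

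Sycp1, the transverse filament gene, varied most between oocytes among the 10 members, with its low end below background. It had 6.95, 6.44 and 6.97 in crude lysates, 5.48, 7.68 and 9.67 with PicoPure, and 7.16, 7.61 and 7.50 with RNeasy. The oocyte of PicoPure replicate 3 was also the highest for Syce1, while PicoPure replicate 1 was the lowest of all 9 for Sycp1. No crude lysate was above background, against 4 of 6 purified samples. Purified RNA averaged 1.2-fold above the crude lysates' background level of 7.26. With 2 of its 6 samples below background this is not a lower bound, and the difference from crude lysate did not pass (limma, adjusted p = 0.690). The 1.2-fold rests on PicoPure replicate 3: without it the other 5 purified samples averaged 7.09, below 7.26. The difference of crude lysate from the average of both kit means was then -0.22 in place of -0.73. Without PicoPure replicate 3 the PicoPure level differed from RNeasy by -0.84, where all arrays gave 0.19, and crude lysate differed from PicoPure by 0.20, where all arrays gave -0.83.

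The lateral element genes Sycp2 and Sycp3 were above background in every oocyte, and neither passed the test between preparations. Sycp2 had 9.73, 9.06 and 9.85 in crude lysates, 10.39, 10.62 and 10.66 with PicoPure, and 10.37, 10.91 and 10.37 with RNeasy. Every crude lysate lay below every purified sample, and both kits gave the same mean to within 0.01. Crude lysate averaged 9.55 ± 0.43 (SD, n = 3) and purified RNA 10.55 ± 0.22 (SD, n = 6), a difference of -1.01 ± 0.20 SE (95% interval -1.47 to -0.55), or 2.01-fold. The adjusted p was 0.0723 (limma, unadjusted 0.00105), so this did not pass the threshold of 0.05. Without RNeasy replicate 3 it was -1.05. Against each kit the difference was -1.01 as well, with adjusted p-values of 0.137 for RNeasy and 0.123 for PicoPure (limma). PicoPure against RNeasy gave 0.00 ± 0.23 SE (95% interval -0.53 to 0.54).

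Sycp3 had 10.82, 9.84 and 10.49 in crude lysates, 10.75, 10.75 and 10.82 with PicoPure, and 11.12, 10.71 and 10.90 with RNeasy. Direct lysis replicate 1 lay above 2 of the 3 PicoPure samples and beside the highest, and the other crude lysates were below all purified samples. Crude lysate differed from purified RNA by -0.46 ± 0.20 SE (limma, adjusted p = 0.348). Without direct lysis replicate 2, the lowest oocyte for both lateral element genes, the Sycp3 difference was -0.19 and that of Sycp2 -0.76. The SD of Sycp3 within crude lysate was 0.50, against 0.04 with PicoPure and 0.20 with RNeasy.

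Sycp2 varied most over the 9 arrays among the 4 measured members. By Pearson's r, the genes most like it among the other 8588 above background on all arrays were Brox (r = 0.977), Fdx1 (r = 0.961) and Rrm2b (r = 0.957). These r are descriptions of 9 points that share the same arrays and normalization. Brox averaged 10.92 in crude lysate and 11.44 in purified RNA. Fdx1 averaged 8.70 and Rrm2b 10.60 in crude lysate, against 10.21 and 11.57 in purified RNA. For Sycp3 the r with Sycp2 was 0.734, for Msh4 0.235 and for Syce2 -0.177.

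Spo11, which makes the breaks, lay between 6.34 and 6.65 in crude lysates, between 6.08 and 6.25 with PicoPure and between 6.05 and 6.55 with RNeasy. Dmc1, which repairs them, lay between 6.16 and 6.32, between 6.02 and 6.24, and between 6.18 and 6.40 in the same order of preparations. Both were at least 0.63 below the background level of every array, so their messages were not measurable at this background. Such values give no fold.

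Of the MutS partners Msh4 and Msh5, Msh4 alone was measured. Msh4 had 7.76, 8.45 and 8.41 in crude lysates, 9.23, 8.45 and 8.73 with PicoPure, and 8.40, 8.29 and 8.10 with RNeasy. Each PicoPure value was above each RNeasy value, while crude lysates overlapped both kits. PicoPure exceeded RNeasy by 0.54 ± 0.24 SE (95% interval -0.02 to 1.10, limma, adjusted p = 0.639). Crude lysate differed from PicoPure by -0.60 ± 0.24 SE (limma, adjusted p = 0.377). The margin of Msh4 over background was 0.53 at its smallest. Under a stricter limit, the 99th percentile of the receptor genes, it was above background in 2 of 3 crude lysates, 3 of 3 PicoPure samples and 0 of 3 RNeasy samples. That limit was 8.01 to 8.23 in crude lysates, 8.06 to 8.14 with PicoPure and 8.30 to 8.42 with RNeasy. The counts therefore do not compare levels of Msh4, which averaged 8.21 in crude lysate and 8.26 with RNeasy. Msh5 lay between 6.72 and 6.83 in crude lysates, between 6.71 and 6.86 with PicoPure and between 6.83 and 7.04 with RNeasy, 0.40 or more below background throughout. Mlh3, which acts at crossovers, lay between 6.69 and 6.79 in crude lysates, between 6.59 and 7.17 with PicoPure and between 6.67 and 6.74 with RNeasy. Its highest value, in PicoPure replicate 2, came within 0.10 of that array's background level.

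Between crude lysate and purified RNA, 0 of the 10 members passed (limma, adjusted p from 0.0723 to 0.884), against 1.01% of all genes, and 2 had an unadjusted p under 0.05, against 14.2%. Differences were negative for 7 members and positive for 3, with a median of -0.22 against 0.00 over all genes. Among the 4 above background on all arrays they were negative for 3 and positive for 1, and among the 4 above background on none, where no difference in message can be read, 2 and 2. Sycp2 was the 1 member whose crude lysates did not overlap the purified samples, a pattern met by 8.02% of all genes and 8.44% of those above background on all arrays. Between PicoPure and RNeasy 0 members passed (limma, adjusted p from 0.639 to 0.999), against 0.0602% of all genes, and 0 had an unadjusted p under 0.05, against 7.98%. Msh4 was the 1 member without overlap, against 13.9% of all genes and 19.7% of those above background on all arrays. Direct lysis against RNeasy called 0 members (0.436% of all genes) and direct lysis against PicoPure 0 (0.597%), with 3 members each at an unadjusted p under 0.05 (13.4% and 12.3% of genes). In each of these comparisons 3 members did not overlap, against 16.9% and 16.6% of genes. Against RNeasy these were Sycp1, Sycp2 and Msh5, all lower in crude lysate, and against PicoPure they were Syce1 and Sycp2, lower, and Spo11, higher. Msh5 and Spo11 were above background on no array. The moderated F over the 3 preparations called 0 members, against 0.637% of genes, and 1 had an unadjusted p under 0.05, against 12.8%. All comparisons with direct lysis share the same 3 crude lysates. The lysis buffer and the absence of a column both set crude lysate apart from purified RNA and cannot be told apart.

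**Figure D2:**
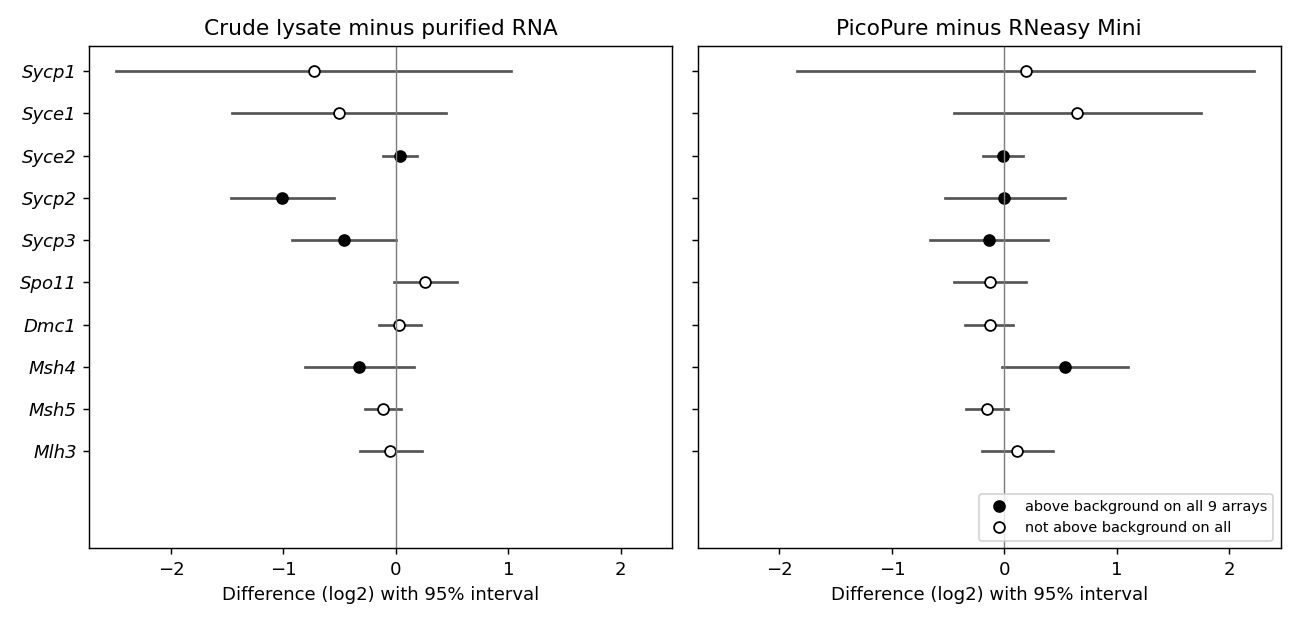
Differences on the log2 scale (horizontal axis) with 95% intervals for the 10 genes, crude lysate minus the mean of both purified groups on the left and PicoPure minus RNeasy on the right. Filled points are genes above background on all 9 arrays. The interval of Sycp2 on the left runs from -1.47 to -0.55, and that of Syce2 is the narrowest among the filled points in both panels.

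The number of the 10 genes above background was 4, 4 and 4 in crude lysates, 4, 5 and 6 with PicoPure, and 4, 6 and 5 with RNeasy. The preparations overlapped (exact permutation test, p = 0.464). With 1680 ways to assign the arrays, these counts allow no p below 0.0714, so the test could not reach 0.05 and says nothing on whether the preparations differ.

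Other prophase genes were read from a list of 60 names, of which 50 had a row of their own. Of these 50, 19 (38.0%) were above background on all arrays, 17 on some and 14 (28.0%) on none, against 43.1% on all and 35.1% on none over all genes. None passed in any of the 5 tests (limma, smallest adjusted p 0.0878 between crude lysate and purified RNA and 0.405 between the kits). At an unadjusted p under 0.05 there were 6 and 3 of 50, against 14.2% and 7.98% of all genes. Their median difference was -0.02 between crude lysate and purified RNA (0.00 over all genes) and 0.03 between the kits (-0.03 over all genes).

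**Figure D3:**
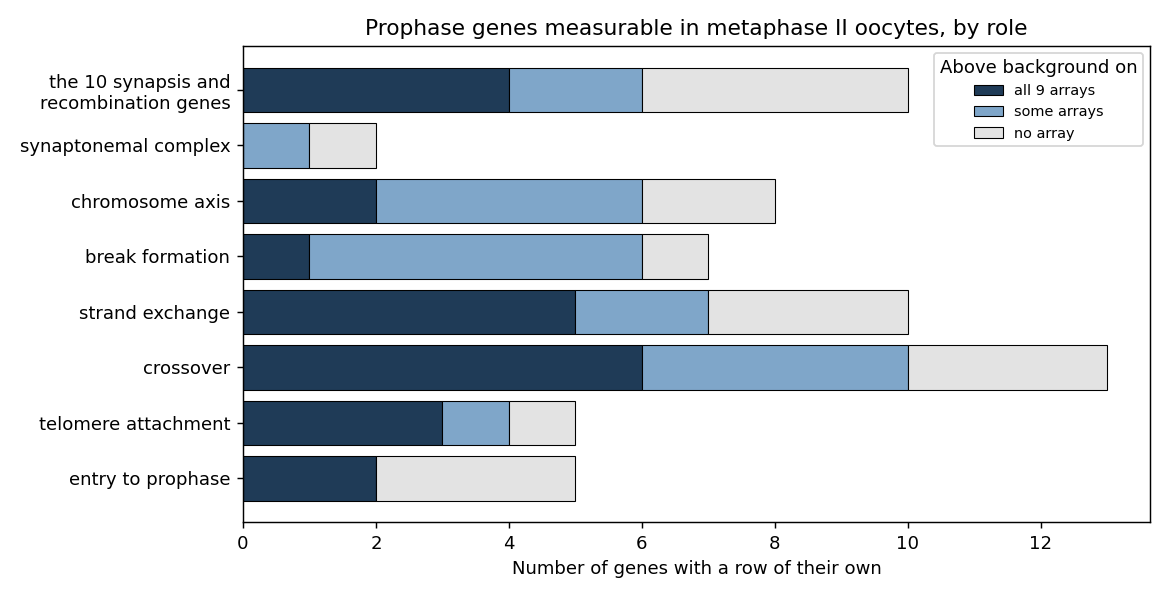
Number of genes (horizontal axis) above background on all 9 arrays, on some or on none, for the 10 synapsis and recombination genes and for 50 other prophase genes by role. Genes above background in every oocyte were 3 of 5 for telomere attachment, 5 of 10 for strand exchange and 6 of 13 for crossover. Of those listed under break formation, 1 of 7 was (Zcwpw1, a reader of histone marks), against 43.1% of all genes.

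In the synaptonemal complex, Tex12, a central element gene, averaged 7.41 ± 0.90 in crude lysate, 9.34 ± 0.27 with PicoPure and 9.15 ± 1.38 with RNeasy (SD, n = 3 each). Its difference of -1.84 ± 0.60 SE between crude lysate and purified RNA did not pass (limma, adjusted p = 0.229). In direct lysis replicate 1 Tex12 had 6.48, below that array's background level of 7.23, so the crude lysate mean includes a value that was not measurable. 4930447C04Rik, whose product Six6os1 is another central element protein, was above background on no array. Among axis genes, the cohesin subunit genes Smc3 and Smc1b lay between 12.28 and 12.44 and between 10.26 and 10.92 over all oocytes. Smc3 also serves mitotic cohesin, while Smc1b is the meiotic form. The meiotic cohesin genes Rec8 and Stag3 were above background on no array, though near it, with margins of -0.26 to -0.08 and -0.50 to -0.10. Their proteins hold chromosomes together in the oocyte.

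Of the 7 genes listed under break formation, only Zcwpw1, a reader of the histone marks set by PRDM9, was above background in every oocyte, between 7.80 and 9.89. Mei4, a partner of SPO11 in making breaks, was above background in 1 oocyte. For strand exchange, Psmc3ip, whose HOP2 protein assists DMC1, lay between 10.52 and 11.36. Brca2, which loads the recombinases, had 11.45, 11.21 and 11.39 in crude lysates, 11.69, 11.87 and 11.76 with PicoPure, and 11.60, 11.67 and 11.61 with RNeasy. Its crude lysates all lay below its purified samples, by -0.35 ± 0.07 SE on average, short of the threshold (limma, adjusted p = 0.0878). In this comparison 8.02% of all genes did not overlap, in either direction, and 8.44% of those above background on all arrays. Among crossover genes, the exonuclease gene Exo1 lay between 9.80 and 11.17 and the helicase gene Blm between 10.25 and 10.66. Of telomere attachment genes, Terb1 lay between 8.78 and 10.47 and Kash5 between 8.17 and 9.08. Of genes for entry into prophase, the RNA-binding protein gene Dazl lay between 11.81 and 12.16 and Ythdc2, an RNA helicase gene, between 7.99 and 9.76. Stra8, the retinoic acid target that starts meiosis, was above background on no array.

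A few of these genes differed widely between single oocytes. Taking a span over 3 log2 units across the 9 arrays, a limit chosen after the values were seen, 1 of the 10 members (Sycp1, 4.19) and 3 of the 50 other genes met it, against 1.39% of all genes. Low ends of these spans lay below background. With values raised to each array's background level, a setting chosen after seeing the data, Sycp1 spanned 2.48 and Rad21l 2.54, and 0 of 10 members and 2 of 50 other genes (Tex12, 3.49, and Hormad1, 3.19) met the limit, against 0.722% of all genes. Hormad1, an axis gene, had 4.44 in PicoPure replicate 1 and 8.66 to 10.38 in the other oocytes. Rad21l, a meiotic cohesin gene, had 9.77 in that same oocyte and 4.75 to 5.12 in the others. Hormad1 and Rad21l each had 2 rows of their own. Only the row with the higher mean is given here, so these extremes rest on 1 row of each gene. Tex12 reached 10.71 in RNeasy replicate 2 and was lowest, at 6.48, in direct lysis replicate 1. PicoPure replicate 1 was thus the highest for Rad21l and the lowest for both Sycp1 and Hormad1. Its total of genes above background, 11104, lay within the range of the 9 arrays, 9640 to 11441.

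**Figure D4:**
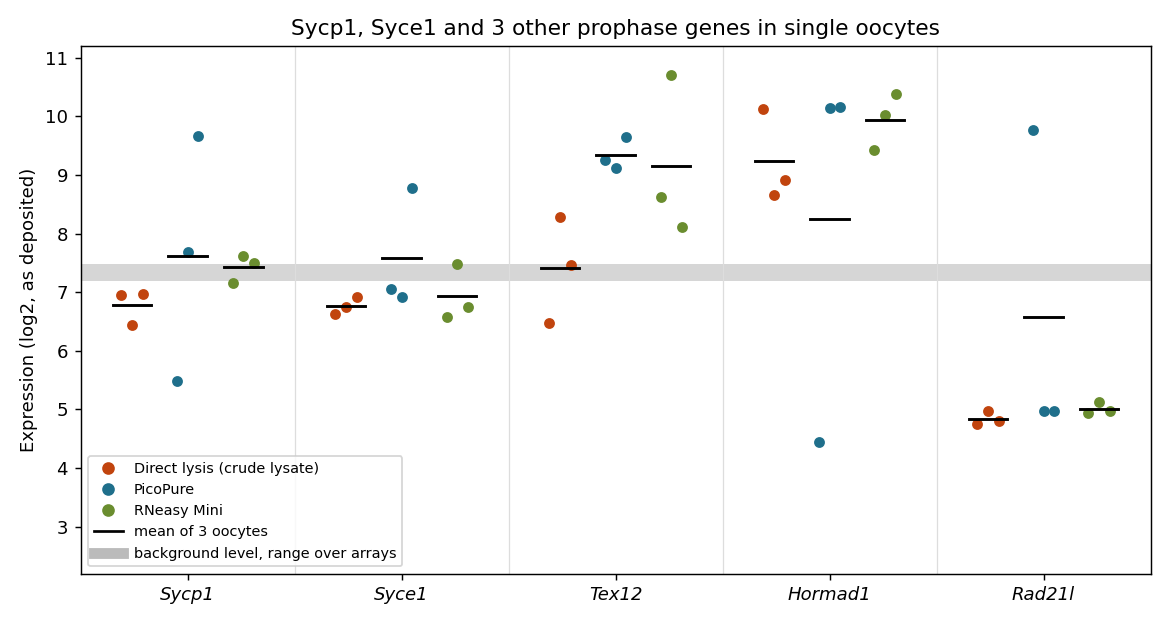
Log2 expression (vertical axis) of Sycp1, Syce1, Tex12, Hormad1 and Rad21l in each oocyte, with 3 points per preparation, a black bar at their mean and a grey band for the background level. A single PicoPure oocyte stands at 9.77 for Rad21l and at 4.44 for Hormad1, and another at 9.67 for Sycp1 and 8.78 for Syce1.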

How the data were processed

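Expression was measured in 9 single oocytes. The authors deposited log2 expression values, already normalized, for 35556 array rows with 0 missing. The submitters' processing notes name GCOS, Affymetrix Expression Console and GCRMA, with neither version nor order. The scale was taken as log2 because values ran from 2.41 up to 13.9 and array medians lay near 7. Scanner files were not used here, so background correction and chip batches could not be varied. The number of arrays limits the precision.

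Gene names came from the probe table (21789 rows with 1 symbol, 1621 with several, 12146 with none). The row with the highest mean stood for each of 19938 genes, with no filter. A single limma model (3.58.1, R 4.3.3) covered the 3 groups with 6 residual degrees of freedom, and p-values were Benjamini-Hochberg adjusted across all genes at a threshold of 0.05. Tested on simulated data, it recovered 83% of genes with a 1 log2 difference for crude lysate and 75% for the kits. False calls numbered 10 and 8. The 200 changed genes were drawn from all 19938, whatever their level or spread, with independent normal noise. These shares are therefore not the power for the members. No 2 arrays held the same values. Promoters are from RefSeq (GRCm38.p6).

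Named genes were the members, the 2 genes of each role in the wider list with the highest mean (an order of probe signals, used only to choose names), any past the threshold, the 3 most like Sycp2, and Bmp15, Zp3 and Mos; others named were chosen after their values were seen. Members and lists were chosen with earlier results of these data known. Alternatives covered normalization, filters, array weights, the fit, the background level and single arrays left out.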

Additional observations from a re-analysis of the deposited data

Results flagged for a closer look

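Mlh3 in PicoPure replicate 2 stood apart from the other purified samples. It had 7.17, while the other 5 lay between 6.59 and 6.74, and its gap to the nearest was 0.728 of the whole range, above Dixon's critical value at 95% for 6 values. It was still below that array's background level. Chance marks about 5% of such groups, and 10 were looked at.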

How the results depend on the processing

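Over 18 or 19 alternatives for each comparison, 0 of 10 members and 0 of 50 other prophase genes passed in any, though the filter on level did not test them all. It dropped genes whose mean was not above the mean background level of 7.29. Among the members these were Sycp1, Syce1, Spo11, Dmc1, Msh5 and Mlh3, and other prophase genes with such means were dropped too. The number of members above background on all arrays was 4 in each alternative except the 99th percentile of the receptors, where it was 3. For Sycp2 the difference between crude lysate and purified RNA stayed between -1.16 and -0.76, with adjusted p from 0.0589 (filter on level) to 0.183 (limma). With the replicate number as a block it was -1.01 (adjusted p = 0.183), and the block changed no call of a member. The number of all genes called for crude lysate against purified RNA was 25 with the replicate block, against 201 without it, and 24 (without RNeasy replicate 1) to 232 (without direct lysis replicate 1) with single arrays left out. It was 0 with the block and 0 to 15 with arrays left out for PicoPure against RNeasy (12 with all arrays), where array weights gave 51 and eBayes with trend, or both groups alone, gave 0 (limma, at an unadjusted p under 0.05 the block gave 1549, trend 1595 and both groups alone 1730, and arrays left out 1189 to 1830). Against RNeasy, direct lysis gave 15 with the block, 3 with both groups alone and 3 (without RNeasy replicate 1) to 95 with arrays left out (87 with all). Against PicoPure it gave 17, 0 (2158 at an unadjusted p under 0.05) and 14 (without PicoPure replicate 2) to 123 (119 with all). The F test gave 14 with the block and 4 (without RNeasy replicate 1) to 96 with arrays left out (127 with all).

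Deviations from the group means showed no pairing by replicate number. Of 9 same-numbered pairs, 1 was correlated over 0.1 (r from -0.09 to 0.13), and r ran from -0.11 to 0.17 in the other pairs. These r do not show whether same-numbered oocytes shared a mouse or a batch. For the 4 members above background on all arrays and the 2 above it on some, signs turned for 17 of 442 differences, none of them called. The members above background on no array were not counted here. For Syce2, PicoPure against RNeasy gave 0.00 with quantile normalization, 0.03 with median centring, and 0.02 without PicoPure replicate 2 or RNeasy replicate 2 (-0.04 to 0.02 over the arrays left out). Without direct lysis replicate 1, Syce2 gave -0.02 for crude lysate against purified RNA, -0.03 against RNeasy and -0.02 against PicoPure (highest values over the arrays left out 0.09, 0.08 and 0.09). For Sycp2, PicoPure against RNeasy gave -0.03 with quantile normalization, and -0.03, -0.05, -0.08 and -0.08 without PicoPure replicate 2 or 3 or RNeasy replicate 1 or 3 (up to 0.18). Msh4 for direct lysis against RNeasy gave 0.17 without direct lysis replicate 1 and 0.02 without RNeasy replicate 1 (lowest -0.17), and Syce1 gave 0.09 without RNeasy replicate 2 (lowest -0.36). Without PicoPure replicate 3, Sycp1 gave -0.84 for PicoPure against RNeasy and 0.20 for direct lysis against PicoPure, while without PicoPure replicate 1 these were 1.25 and -1.89. The cause was not tested. The background level limits the 4 members below it on all arrays, for which no difference in message can be read.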

Other observations

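Sun1, an inner nuclear membrane gene whose protein tethers telomeres in prophase, was chosen after its values were seen. It had 7.81, 7.13 and 8.50 in crude lysates, 9.65, 8.84 and 9.66 with PicoPure, and 8.25, 8.04 and 8.12 with RNeasy. All PicoPure oocytes lay above all others. Over all genes, 13.9% did not overlap between PicoPure and RNeasy, and 16.6% between direct lysis and PicoPure. The 7.13 of direct lysis replicate 2 lay below that array's background level of 7.28, so the crude lysate mean includes a value that was not measurable. PicoPure exceeded RNeasy by 1.25 ± 0.35 SE (limma, adjusted p = 0.405), and crude lysate differed from PicoPure by -1.57 ± 0.35 SE (limma, adjusted p = 0.114), neither past the threshold. Swsap1, a cofactor gene of strand exchange, also chosen after its values were seen, ran the other way, with 8.33 ± 0.54 in crude lysate and 7.43 ± 0.10 with PicoPure (SD, n = 3 each, limma, adjusted p = 0.340).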
